A study of Mus musculus with 12 samples.

Results

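The potassium channel genes of the mouse were followed through 12 brain RNA-sequencing libraries from animals in which exon 7 of Auts2 was targeted. They were chosen as all protein-coding genes whose symbol starts with Kcn, leaving out symbols that end in os, ot or -ps. This gave 94 genes of the 55487 gene identifiers counted. By symbol, 17 encode the pore-forming Kcna, Kcnb, Kcnc and Kcnd subunits, 8 are Kcnh, 15 Kcnj, 14 Kcnk, 6 Kcnm or Kcnu, 4 Kcnn, 5 Kcnq and 2 Kcnt genes, and 23 are auxiliary or modifier subunits.

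Potassium channels let potassium leave the neuron and so set its resting potential, end the action potential and limit how often it fires. Voltage-gated channels open on depolarization, calcium- and sodium-activated channels open when those ions enter, and inward rectifiers and tandem-pore channels carry the current at rest. In glia, inward rectifiers clear potassium from the extracellular space. The brain exchanges many of these subunits as neurons mature.

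The P0 groups were forebrains of newborn male mice, 3 knockouts made with Cmv-cre (labelled cmv-cre_auts2-ex7koko) and 3 wild-type littermates (BL6 WTLM). Cmv-cre acts throughout the body. The P14 groups were hippocampi of male mice at postnatal day 14, 3 knockouts made with Nes-cre (nes-cre_auts2-ex7koko) and 3 controls labelled auts2-ex7-fl-het. Nes-cre acts in neural progenitors and their progeny, so vascular cells and microglia of these knockouts are outside its main lineage. The labels do not say whether the P14 controls carry Nes-cre, so these controls may have lost 1 working allele or none. Each library came from 1 animal. Total counts ranged from 11247150 to 16796797 in the P0 libraries and from 16830720 to 23340621 in the P14 libraries.

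Levels are given as CPM, counts scaled to a common library size, with edgeR's TMM method over all 12 libraries, and per kilobase of annotated exon (RPKM) where genes are compared with each other. A gene is called when the Benjamini-Hochberg adjusted p of edgeR's quasi-likelihood test over all genes is under 0.05. Auts2 itself was read first. It had 165, 181 and 161 CPM in the P0 knockouts and 160.2, 136 and 155 in their controls. At P14 it had 92.8, 77.5 and 75.1 CPM in the knockouts and 97.3, 97.8 and 110.2 in the controls. Gene counts sum all its isoforms and do not measure exon 7, and neither difference was called (edgeR adjusted p 0.362 and 0.111). Oligodendrocyte markers summed to 106 to 110.3 CPM in P0 controls and 4258 to 6366 in P14 controls, and dentate granule markers to 144 to 157 and 499 to 546. Progenitor markers summed to 405 to 439 and 177 to 186 CPM. P0 knockout 3 and P0 control 3 carry library numbers 1415 and 1416, apart from the other P0 libraries (1407 to 1410). Choroid plexus markers summed to 153, 977 and 2571 CPM in P14 controls 1, 2 and 3, a spread that no other list showed.

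The control groups were compared first, to describe the level of each channel in both. Tissue, age, control genotype and library number differ together between P0 forebrain and P14 hippocampus, so their parts in a difference cannot be told apart. In bulk tissue, fewer cells of a type and less RNA per cell cannot be told apart either. Summed over all 94 genes, the P0 controls had 2086, 2051 and 2069 CPM and the P14 controls 5083, 4898 and 5141 CPM. Of the 94 genes, 81 passed the filter on low counts in the fit of all 12 libraries. Of these 81, 51 were called higher in P14 hippocampus and 16 lower, against 32.3% and 31.7% of all 18189 genes tested. The median log2 fold change was 0.99 over the 81 genes and 0.00 over all genes. Counting only called genes that changed by 1 or more on the log2 scale, 39 rose and 8 fell, against 15.0% and 13.4% of all genes. All P14 controls lay above all P0 controls for 52 of the 81 and below for 16, against 34.0% and 33.7% of all genes, and 70 had an unadjusted p under 0.05, against 67.3%. With the knockout libraries in place of the controls, 54 were higher and 13 lower, and 64.3% of all genes were called in either direction. A mean of at least 10 RPKM was reached by 5 genes in the P0 controls and by 29 in the P14 controls.

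**Figure D1:**
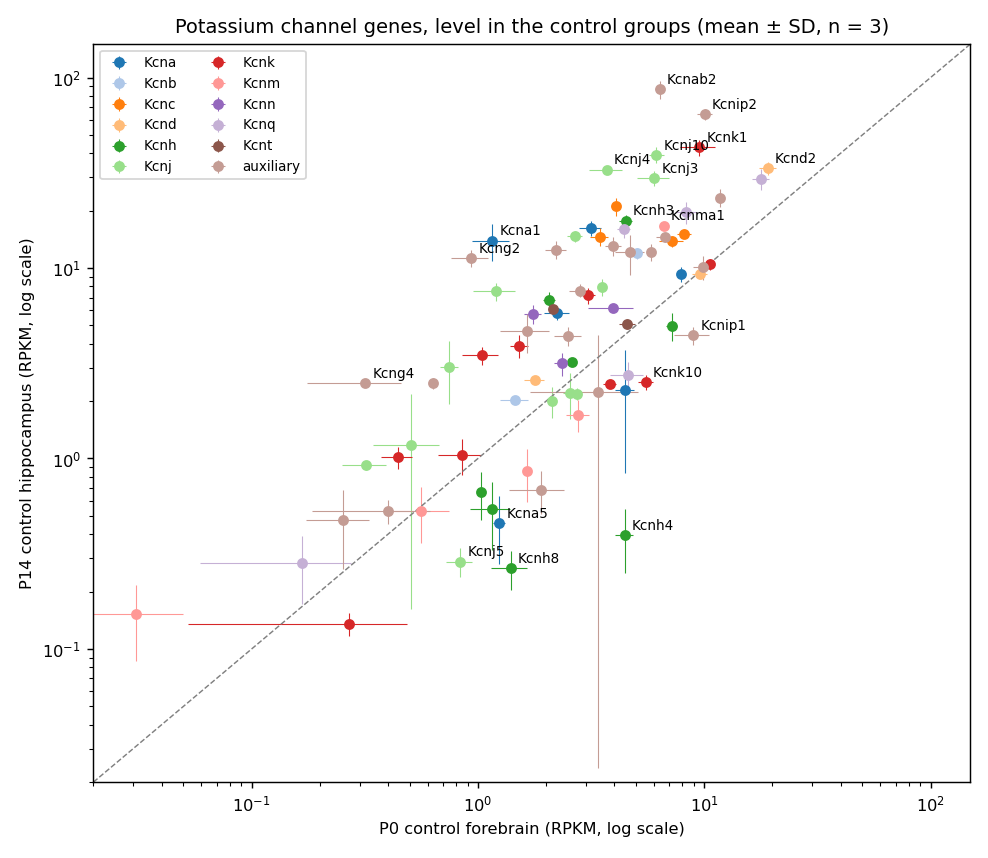
Mean RPKM of the 81 tested potassium channel genes in P0 control forebrain (x axis) and P14 control hippocampus (y axis), both on log scales, with bars for the SD over 3 libraries and colours for subfamilies. Points above the dashed line of equal level are genes higher in P14 hippocampus; Kcnab2 reached 86.7 ± 9.58 RPKM there, and Kcnh4 lies farthest below the line.

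The Kcna genes encode voltage-gated channels that sit in axons and near the site of spike initiation. At P0 the highest of them was Kcna6 at 7.86 ± 0.247 RPKM (SD, n = 3, as for all RPKM below), and at P14 Kcna2 at 16.1 ± 1.42 RPKM, followed by Kcna1 at 13.9 ± 3.02. The Kcna2 and Kcna1 levels at P14 lie within their combined SD, but per kilobase of coding sequence they were 128 and 44.8. Kcna1 had 5.87, 4.37 and 6.36 CPM in the P0 controls and 58.0, 58.5 and 83.2 CPM in the P14 controls. Its log2 fold change was 3.57 (SE 0.18, edgeR adjusted p 3.53e-11). Kcna2 rose by 2.36 and Kcna4, which carries a rapidly inactivating current, by 1.37 on the log2 scale (edgeR adjusted p 2.92e-15 and 4.61e-10). Kcna6 rose by 0.23 only (edgeR adjusted p 0.0259), and 39.6% of its exon bases overlap an antisense gene. Kcna5 went the other way, from 3.78, 3.56 and 3.32 to 1.85, 1.23 and 0.843 CPM, a log2 fold change of -1.44 (SE 0.30, edgeR adjusted p 2.39e-04). Kcna3, best known from lymphocytes, was at -0.96 (edgeR adjusted p 0.0499), and its P14 control libraries spread from 2.37 to 7.48 CPM. Kcna7 and Kcna10 were among the 13 genes too low to test.

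The Kcnc genes encode fast delayed rectifiers that let neurons fire at high rates, and Kcnc1, Kcnc2 and Kcnc4 were called higher at P14. At P0 Kcnc1 (8.16 ± 0.603 RPKM) and Kcnc4 (7.17 ± 0.871) lay above Kcnc2 (3.45 ± 0.314). At P14 these genes had 15.2 ± 0.837, 13.8 ± 0.973 and 14.6 ± 1.58 RPKM, apart by no more than the sum of their SDs. This closeness depends on the length used. Per kilobase of coding sequence, Kcnc1, Kcnc4 and Kcnc2 had 80.4, 26.9 and 45.3 at P14. The log2 fold changes were 2.08 for Kcnc2, 0.95 for Kcnc4 and 0.89 for Kcnc1. Kcnb2, a delayed rectifier of the soma and dendrites, rose by 0.48. Among the Kcnd genes, which carry the transient A-type current of dendrites, Kcnd2 was highest in both controls, at 19.1 ± 1.60 and 33.4 ± 2.72 RPKM. Kcnd2 rose by 0.81 and Kcnd1 by 0.53 on the log2 scale. Kcnd3 had 99.9, 88.5 and 86.3 CPM at P0 and 89.0, 87.2 and 90.6 CPM at P14, and these groups overlapped (log2 fold change -0.04, SE 0.09, edgeR adjusted p 0.696).

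The Kcnh genes, which encode the ether-a-go-go, ERG and ELK channels, divided. All 8 were tested and called, 3 higher and 5 lower at P14. Kcnh3 rose from 25.8, 24.2 and 27.8 to 109, 102 and 94.2 CPM, by 1.97 (SE 0.10, edgeR adjusted p 4.00e-14) on the log2 scale, and was the highest Kcnh gene at P14 with 17.7 ± 1.30 RPKM. Kcnh1 rose by 1.72 and Kcnh7 by 0.29. Kcnh4, a close relative of Kcnh3, fell from 19.3, 17.2 and 16.3 to 1.15, 2.23 and 1.32 CPM, with a log2 fold change of -3.48 (SE 0.24, edgeR adjusted p 5.49e-11). At P0 these relatives had similar levels per exon length, 4.50 ± 0.311 and 4.44 ± 0.396 RPKM, and at P14 they had 17.7 ± 1.30 and 0.396 ± 0.147. Per kilobase of coding sequence, Kcnh3 and Kcnh4 had 7.89 and 5.75 at P0. Kcnh8, the remaining ELK gene, was at -2.40, Kcnh6 at -1.10, Kcnh5 at -0.63 and Kcnh2 at -0.52. The striatal projection list of 10 markers summed to 505 to 588 CPM in P0 controls and 229 to 272 in P14 controls, with 9 of 10 called lower. Its part in the Kcnh4 difference was not tested.

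Among the inward rectifiers, 8 of 13 tested Kcnj genes were called higher at P14 and 2 lower. Kcnj10, the main potassium conductance of astrocytes, went from 34.4, 35.0 and 30.3 to 192, 212 and 232 CPM (log2 fold change 2.68, SE 0.09, edgeR adjusted p 1.13e-16), and its partner Kcnj16 rose by 2.65. The 9 astrocyte markers summed to 608 to 796 CPM at P0 and 6474 to 6591 at P14, with 8 of 9 called higher, and their part in the rise of Kcnj10 was not tested. Kcnj4, a strong inward rectifier of forebrain neurons, went from 9.23, 8.09 and 6.64 to 73.4, 70.2 and 68.6 CPM, a log2 fold change of 3.16 (SE 0.11, edgeR adjusted p 1.97e-16). The G protein-gated rectifiers Kcnj3, Kcnj6 and Kcnj9, which slow neurons in response to inhibitory transmitters, rose by 2.30, 2.02 and 2.46. Kcnj5, the family member known from the heart, fell by 1.53 (edgeR adjusted p 2.13e-05). An opposite-strand noncoding gene overlaps 31.1% of the Kcnj3 exon bases. Kcnj11, the pore of the ATP-sensitive channel, rose by 1.17, while Kcnj8, its counterpart in vascular mural cells, was at -0.20 (SE 0.22, edgeR adjusted p 0.451).

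The tandem-pore genes carry background leak currents. Kcnk1 became the highest of them, from 9.48 ± 1.65 to 42.9 ± 3.99 RPKM, a log2 fold change of 2.19 (SE 0.11, edgeR adjusted p 9.43e-14). Kcnk2, the highest at P0, had 10.6 ± 0.146 and 10.5 ± 0.697 RPKM, and its groups overlapped (log2 fold change -0.01, SE 0.08, edgeR adjusted p 0.919). An opposite-strand gene overlaps 12.2% of the Kcnk2 exon bases. Its close relative Kcnk10 fell by 1.13 and another relative, Kcnk4, rose by 1.75. The acid-sensitive pair also parted, with Kcnk9 at 1.22 and Kcnk3 at -0.64, both called. Of the Kcnk genes, 4 were too low to test: Kcnk7, Kcnk15, Kcnk16 and Kcnk18.

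Calcium-activated channels were called higher at P14 for Kcnma1, the large-conductance pore (1.33), and for the small-conductance genes Kcnn2 (1.73), Kcnn1 (0.62) and Kcnn3 (0.42). Kcnmb2, a beta subunit that makes the large-conductance channel inactivate, was lower (-0.70). The Kcnq genes of neurons carry the M current, which restrains repetitive firing. Kcnq3 rose by 1.23 and Kcnq5 by 1.86 on the log2 scale (edgeR adjusted p 1.00e-10 and 5.49e-14). Of the sodium-activated pair, Kcnt2 rose by 1.51, and Kcnt1 was at 0.15 (SE 0.17, edgeR adjusted p 0.464).

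Auxiliary subunits gave the largest rise of all. Kcnab2, a cytoplasmic beta subunit of Kcna channels, went from 34.5, 37.5 and 34.3 to 539.9, 477 and 434 CPM, a log2 fold change of 3.77 (SE 0.09, edgeR adjusted p 6.84e-19), and at 86.7 ± 9.58 RPKM was the highest of the 94 genes per length. Kcnab1 rose by 2.51. Of the calcium-binding partners of Kcnd channels, Kcnip2 (2.67), Kcnip4 (1.37) and Kcnip3 (0.99) rose, and Kcnip1 fell from 53.3, 66.2 and 46.9 to 30.9, 25.0 and 26.6 CPM (-1.01, edgeR adjusted p 1.18e-07). The silent subunits, which form no channel alone but alter Kcnb channels, rose where called: Kcng2 (3.60), Kcng4 (2.93), Kcns3 (1.97), Kcng1 (1.73), Kcns2 (1.44), Kcnv1 (1.12), Kcnf1 (1.07) and Kcns1 (0.82). Of the 23 auxiliary genes 20 were tested, and 14 were called higher and 2 lower.

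**Figure D2:**
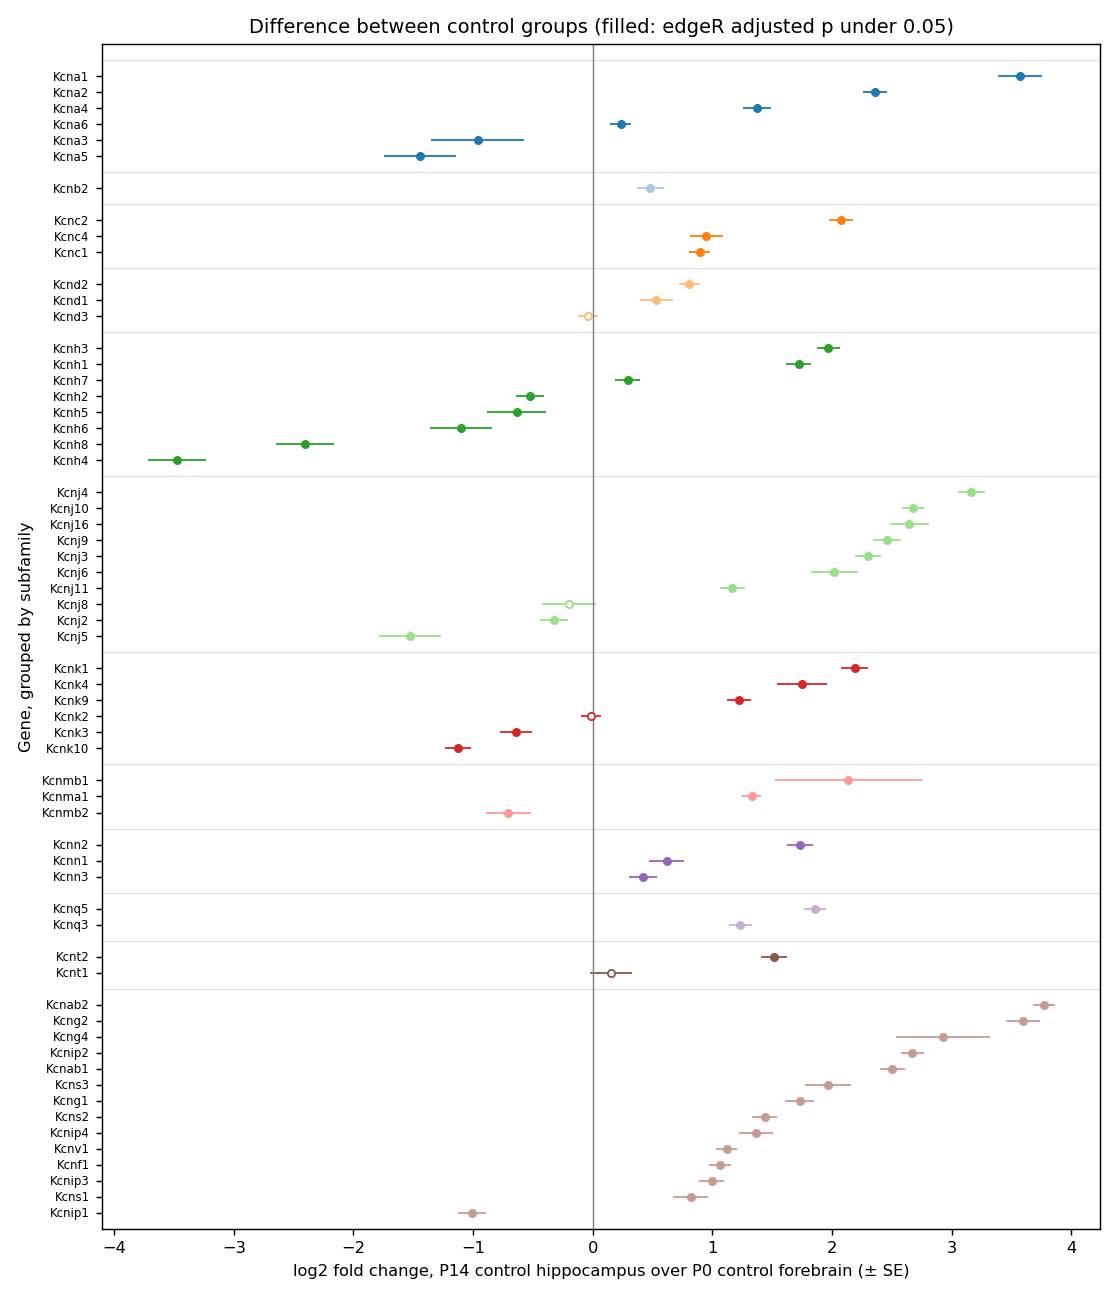
Log2 fold change of the tested potassium channel genes whose value is given in the text, between P14 control hippocampus and P0 control forebrain (x axis, bars for the SE), with genes grouped by subfamily on the y axis; filled points have an edgeR adjusted p under 0.05. Most points lie to the right, and Kcnh has more called genes on the left (5) than on the right (3).

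The P0 comparison asked what loss of exon 7 from the whole animal does in the newborn forebrain. No potassium channel gene was called among the 78 tested, where 0.909% of all 16176 genes were (0.192% higher and 0.717% lower). Unadjusted, 16 of the 78 (20.5%) had a p under 0.05, against 16.1% of all genes. DESeq2 called 4 of these genes, all lower (Kcnd2, Kcnip2, Kcnk4 and Kcnv1), and 2.31% of all genes. The log2 fold change was negative for 61 of the 78, with a median of -0.16, against a median of 0.00 over all genes. By subfamily, 7 of 8 Kcnh, 11 of 12 Kcnj, 8 of 10 Kcnk, 5 of 6 Kcna and 14 of 20 auxiliary genes tested were negative, and the 3 Kcnn genes were positive (0.03 to 0.17). In the alternative fits the median over the tested members lay between -0.17 and -0.14. The knockouts had 1882, 1905 and 1855 CPM summed over the 94 genes, and each lay below all controls (2086, 2051 and 2069). Every knockout library lay below every control for 17 genes (21.8%) and above for 2 (2.56%), against 11.1% and 10.7% of all genes tested.

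The 8 members with the smallest p at P0 held a pore and a subunit of the A-type complex and 3 inward rectifiers. Kcnip2 had 21.4, 27.6 and 26.3 CPM in the knockouts and 32.2, 35.0 and 37.3 in the controls, so the groups did not overlap. Its log2 fold change was -0.48 (SE 0.11, edgeR adjusted p 0.0565). Its partner channel Kcnd2 had 79.7, 69.5 and 81.5 CPM against 103, 103 and 88.7, again without overlap (log2 fold change -0.36, SE 0.09, edgeR adjusted p 0.0746). Kcnv1, a silent subunit, had 23.0, 23.7 and 22.4 against 33.6, 28.5 and 29.7 CPM (log2 fold change -0.42, SE 0.10, edgeR adjusted p 0.0660). Kcnk4, a mechanically gated leak channel, showed the widest gap, 1.11, 1.66 and 3.08 against 3.86, 5.50 and 4.53 CPM (log2 fold change -1.21, SE 0.31, edgeR adjusted p 0.0813). Kcnk4 shares 13.1% of its exon bases with Catsperz on the same strand. Kcnj11 was the exception in sign, with 18.6, 18.1 and 17.3 CPM in the knockouts and 13.1, 13.1 and 12.8 in the controls (log2 fold change 0.47, SE 0.11, edgeR adjusted p 0.0669). Kcnab1 (-0.46), Kcnj12 (-0.66) and Kcnj6 (-0.59) also had all knockouts below all controls, with edgeR adjusted p from 0.102 to 0.154.

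The P0 result turned on knockout 3. Without it, 8 potassium channel genes were called, Kcnj11 higher and Kcnc4, Kcnd2, Kcnh3, Kcnh4, Kcnip2, Kcnk4 and Kcnv1 lower, against 4.69% of all genes. Leaving out any other P0 library gave 0, where few genes of any kind were called. Of all genes, 0.00604% and 0.0906% were called without knockouts 1 and 2. Without controls 1, 2 and 3 the shares were 0.0121%, 0.00605% and 1.51%. In a fit with a term for the library series, Kcnd2, Kcnip2, Kcnk4 and Kcnv1 were called lower and Kcnj11 higher, with 2.87% of all genes called. Within the 4 libraries numbered 1407 to 1410, 10 of 77 tested members were called, 9 of them lower, near the 12.9% of all genes. The other series has 1 library of each genotype and gives no test. Summed levels of cell type markers differed at P0 too. Astrocyte markers summed to 552, 551 and 549 CPM in the knockouts and 796, 756 and 608 in the controls, dentate granule markers to 123 to 125 and 144 to 157, and choroid plexus markers to 907 to 1002 and 675 to 854. Of these lists, 1 of 9 astrocyte markers (Aqp4) and 1 of 8 tested dentate granule markers (Calb1) were called lower, and none of 8 choroid plexus markers was called. Oligodendrocyte precursor markers summed to 209.9 to 216 CPM in the knockouts and 241 to 283 in the controls, and mural markers to 153 to 189.8 and 201 to 206, with none called. Striatal projection markers summed to 464 to 489 and 505 to 588 CPM (1 of 10 called lower) and microglia markers to 58.5 to 68.7 and 69.2 to 88.2 (1 of 6 called lower). Their part in the lower channel levels was not tested.

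The P14 comparison put the same question to the hippocampus, with Nes-cre in place of Cmv-cre. Among the 80 potassium channel genes tested, 5 were called (6.25%), against 1.99% of all 17208 genes. Kcnh3, Kcnc4 and Kcnk9 were higher in the knockouts and Kcnc2 and Kcnip2 lower, while 1.21% and 0.773% of all genes were called higher and lower. Unadjusted, 25 of the 80 (31.2%) had a p under 0.05, against 15.2% of all genes. All knockouts lay above all controls for 13 genes and below for 13 (16.2% each), against 9.41% and 10.6% of all genes. The members' median log2 fold change was 0.06 and that of all genes -0.01, with 45 positive and 35 negative. The Kcnk genes were positive in 8 of 9, the Kcnj genes in 9 of 13, and the auxiliary genes in 7 of 20. The summed level was 5016, 5243 and 4939.8 CPM in the knockouts and 5083, 4898 and 5141 in the controls, with overlap.

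**Figure D3:**
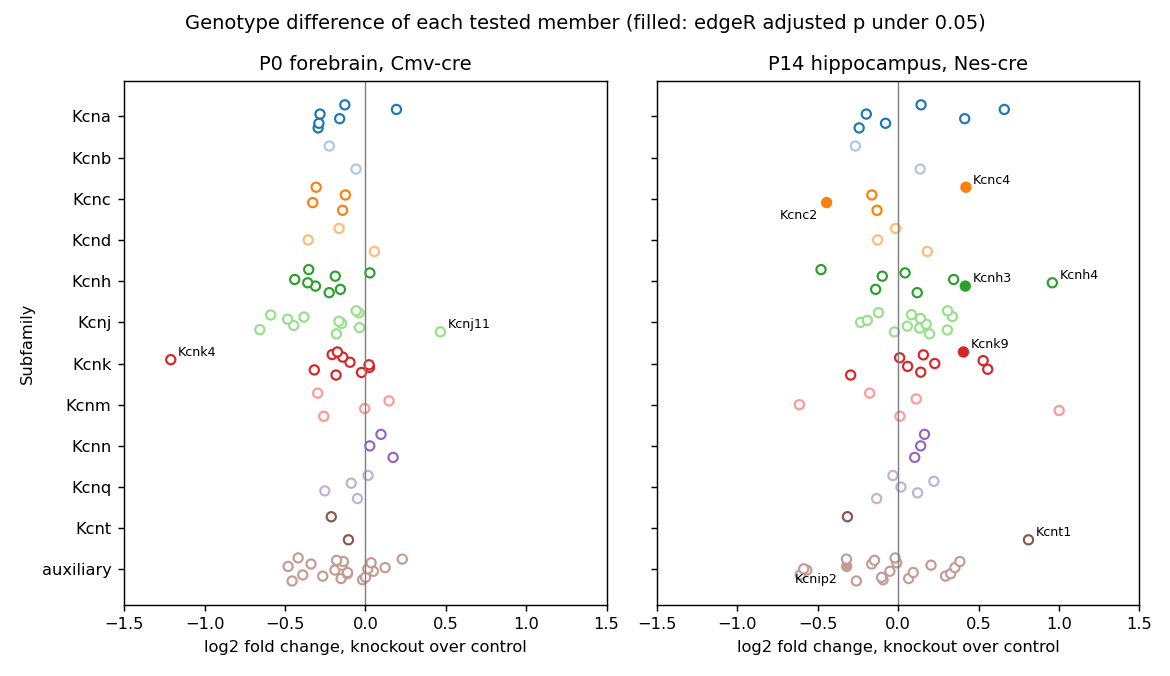
Log2 fold change of knockout over control for each tested potassium channel gene, by subfamily, in P0 forebrain (left) and P14 hippocampus (right); filled points have an edgeR adjusted p under 0.05. At P0 61 of 78 points lie left of 0 and none is filled, and at P14 the points lie on both sides and 5 are filled.

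Kcnh3 encodes an ELK channel of forebrain neurons that opens below the firing threshold. It lies on chromosome 15 from 99224861 to 99242817 (GRCm38, plus strand). The P14 knockouts had 134, 137 and 134 CPM and the controls 109, 102 and 94.2. All knockouts thus lay above all controls, and the log2 fold change was 0.42 (SE 0.07, edgeR adjusted p 0.00739). An exact two-sided permutation test over the 3 against 3 libraries gave p = 0.1, the smallest it can give, and it did so for each of the 5 called genes. Kcnk9, a tandem-pore leak channel on chromosome 15 from 72501089 to 72546340, had 119, 125 and 104 CPM in the knockouts and 78.8, 92.2 and 94.1 in the controls (log2 fold change 0.41, SE 0.09, edgeR adjusted p 0.0329). Kcnc4, a fast-inactivating member of the Kcnc group, lies on chromosome 3 from 107438303 to 107459552. It had 66.2, 72.5 and 63.0 against 53.5, 51.9 and 46.7 CPM (log2 fold change 0.42, SE 0.08, edgeR adjusted p 0.0147).

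Kcnc2 and Kcnip2 fell. Kcnc2, a delayed rectifier of fast-spiking neurons, lies on chromosome 10 from 112271121 to 112467024 and had 71.1, 83.2 and 73.7 CPM in the knockouts against 116, 103 and 93.8 in the controls (log2 fold change -0.45, SE 0.09, edgeR adjusted p 0.0155). Within 1 subfamily, Kcnc2 and Kcnc4 were therefore called in opposite directions, and Kcnc1 (-0.13) was not called. Kcnip2, on chromosome 19 from 45791839 to 45816061, had 176, 188 and 167 CPM against 234, 228 and 207 (log2 fold change -0.32, SE 0.07, edgeR adjusted p 0.0355). Its partner channels Kcnd2 (-0.13) and Kcnd3 (-0.02) did not pass the test. Kcnip2 and Kcnc2 also had all knockouts below all controls at P0, as did Kcna4, Kcnab1 and Kcnj2. These 5 of the 77 genes tested in both contexts (6.49%) were lower without overlap in both, against 1.55% of all 15643 genes. None was higher in both, against 0.914%. Members were also more often lower without overlap in each context alone, at 21.8% (P0) and 16.2% (P14), against 11.1% and 10.6% of all genes. Kcns3 was higher without overlap at P0 and lower without overlap at P14.

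Kcnt1, the sodium-activated channel known as Slack, missed the threshold, with a larger fold change and a larger SE than any of the 5 called genes. The P14 knockouts had 96.1, 94.3 and 61.5 CPM and the controls 46.6, 47.0 and 51.5 (log2 fold change 0.81, SE 0.16, edgeR adjusted p 0.0515). Knockouts 1 and 2 lay far above the controls and knockout 3 nearer to them. Without knockout 3 Kcnt1 was called (edgeR adjusted p 4.93e-04), and it was not called without any other library (edgeR adjusted p 0.113 to 0.209). With all libraries it was called in 6 of 10 other settings. Kcnk3 (log2 fold change 0.53, SE 0.14, edgeR adjusted p 0.0661) and Kcnt2 (log2 fold change -0.32, SE 0.08, edgeR adjusted p 0.0690) came next and also had groups without overlap. Kcnh4, low at P14, had 2.88, 3.85 and 2.29 CPM in the knockouts and 1.15, 2.23 and 1.32 in the controls (log2 fold change 0.96, SE 0.30, edgeR adjusted p 0.121).

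**Figure D4:**
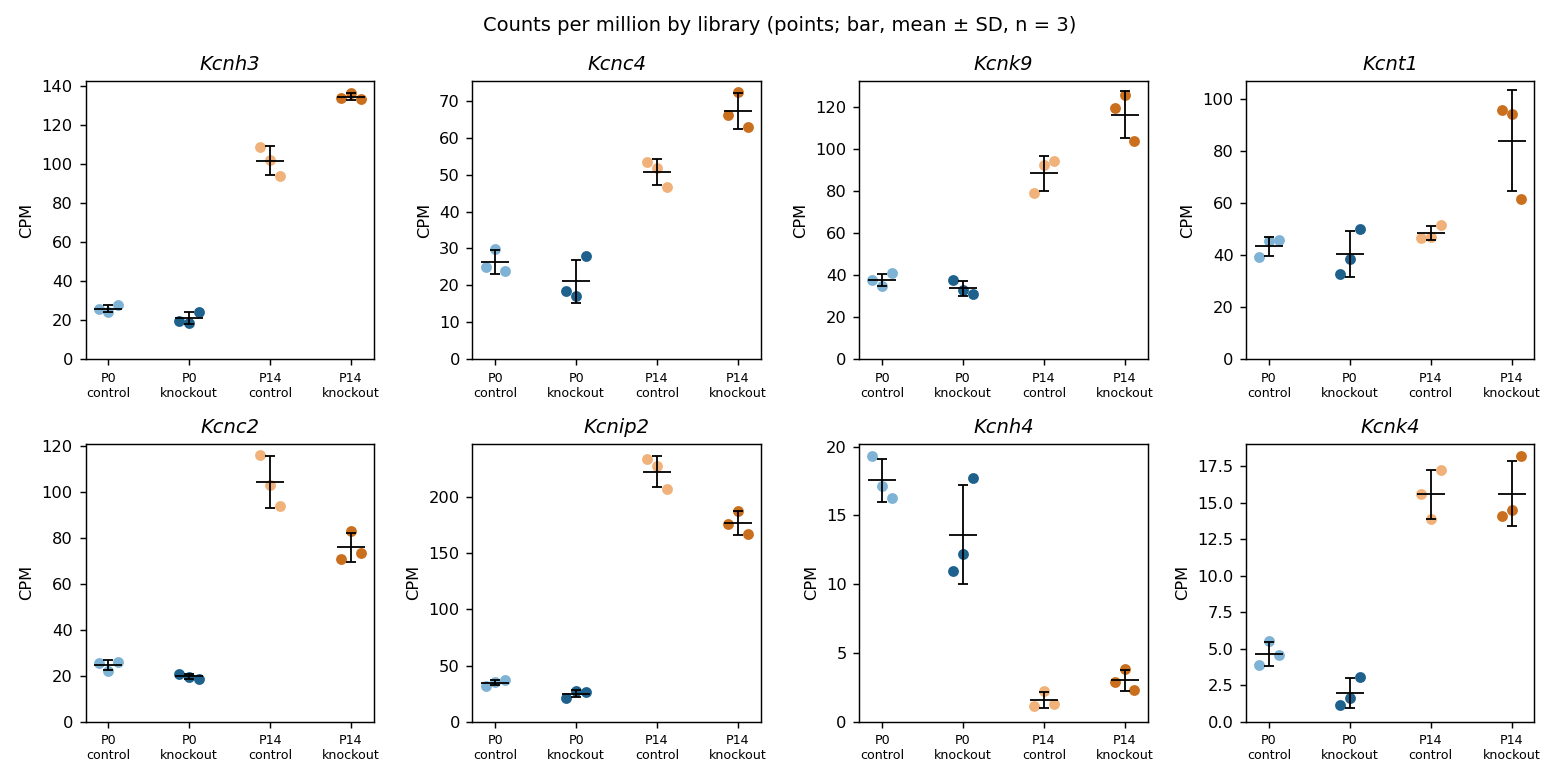
CPM of 8 potassium channel genes in each library of the 4 groups, with bars for the mean ± SD over 3 libraries. Kcnh3, Kcnc4 and Kcnk9 are higher and Kcnc2 and Kcnip2 lower in the P14 knockouts without overlap; P14 knockout 3 is the low Kcnt1 point, and P0 knockout 3 is the highest P0 knockout for Kcnc4, Kcnt1, Kcnh4, Kcnh3 and Kcnk4.

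The P14 calls leaned on single libraries. With 1 library left out, Kcnh3 was called in 4 of the 6 fits, Kcnc4 in 3, Kcnc2 and Kcnk9 in 2 and Kcnip2 in 1, each with its sign kept in all 6. Leaving out knockout 1 or control 2 gave 0 called members (Kcnh3 then had edgeR adjusted p of 0.0591 and 0.0564), and leaving out knockout 2, knockout 3 or control 1 gave 2, 4 and 2. Of all genes, 0.595% and 0.669% were called in the fits that gave 0, and 1.07%, 1.08% and 0.989% in the latter. Leaving out control 3 gave 19, of which 12 were higher and 7 lower, against 10.3% of all genes. Cell type markers moved at P14 as well. Dentate granule markers summed to 343, 318 and 355 CPM in the knockouts and 511, 546 and 499 in the controls, with 8 of 10 called lower. Striatal projection markers summed to 304 to 405 against 229 to 272 CPM, with 9 of 10 positive and Drd1 and Foxp1 called. Cortical excitatory markers had 4 of 10 called higher (Foxp2, Mef2c, Fezf2 and Tbr1), while their summed level overlapped (2324 to 2508 against 2129 to 2329 CPM). Thalamus markers summed to 170.3 to 181 CPM in the knockouts and 194 to 239 in the controls, with 2 of 7 called lower. Astrocyte markers summed to 6147 to 6436 against 6474 to 6591 CPM and endothelial markers to 163 to 181 against 193 to 204, with none called. Ependymal markers summed to 30.4 to 37.7 against 18.1 to 26.7 CPM, with 1 of 5 called higher. Interneuron markers (1 of 8 called lower) had overlapping sums, 691 to 783 against 723 to 856 CPM. Mural markers (1 of 7 called lower) overlapped too, at 290 to 376 against 373 to 402 CPM. CA pyramidal sums also overlapped, with 1 of 10 markers called higher and 1 lower. No marker of these lists was at 0 in every library. Their part in the channel differences was not tested.

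Proximal promoters are shown for 4 genes that the genotype comparisons turn on and for which RefSeq (GRCm38.p6) gave a window from 250 bases before to 50 after the annotated start. Capitals mark the GC box GGGCGG on either strand, the commonest of the motifs searched among these genes. Kcnc2 and Kcnip2 fell at P14, Kcnc4 rose, and Kcnh4 had a genotype effect that differed between contexts.
Kcnc2 (chr10:112270871-112271170, plus strand): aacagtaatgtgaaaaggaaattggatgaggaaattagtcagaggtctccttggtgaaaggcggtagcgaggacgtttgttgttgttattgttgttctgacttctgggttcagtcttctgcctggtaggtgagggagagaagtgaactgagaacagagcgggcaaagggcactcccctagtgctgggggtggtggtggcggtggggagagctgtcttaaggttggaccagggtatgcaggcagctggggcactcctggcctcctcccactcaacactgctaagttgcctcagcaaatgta
Kcnip2 (chr19:45816014-45816313, minus strand): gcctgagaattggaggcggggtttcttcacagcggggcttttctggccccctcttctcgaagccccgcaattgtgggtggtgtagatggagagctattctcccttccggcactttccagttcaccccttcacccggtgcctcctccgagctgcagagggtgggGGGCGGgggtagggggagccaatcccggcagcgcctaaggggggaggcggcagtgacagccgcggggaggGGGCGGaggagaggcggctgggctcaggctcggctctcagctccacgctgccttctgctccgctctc
Kcnc4 (chr3:107458849-107459148, minus strand): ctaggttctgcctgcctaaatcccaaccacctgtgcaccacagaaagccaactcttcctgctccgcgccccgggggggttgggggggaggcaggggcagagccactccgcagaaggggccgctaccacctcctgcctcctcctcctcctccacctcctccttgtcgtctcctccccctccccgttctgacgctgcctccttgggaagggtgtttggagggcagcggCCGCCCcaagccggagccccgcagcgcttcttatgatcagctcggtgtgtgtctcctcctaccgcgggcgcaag
Kcnh4 (chr11:100759729-100760028, minus strand): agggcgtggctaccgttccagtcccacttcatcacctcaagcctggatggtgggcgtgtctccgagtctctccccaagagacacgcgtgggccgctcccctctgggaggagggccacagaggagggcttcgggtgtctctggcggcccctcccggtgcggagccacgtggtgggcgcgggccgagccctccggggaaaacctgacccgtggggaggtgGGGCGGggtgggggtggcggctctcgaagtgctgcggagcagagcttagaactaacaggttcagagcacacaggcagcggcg

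Kcnc2 had 4 windows, of which the one nearest its GENCODE start is shown, and the other genes had 1 each. The RefSeq starts used for the Kcnc4 and Kcnh4 windows lie 654 and 164 bases from the GENCODE starts of these genes. The printed Kcnc2 window held no GC box and 5 CpG dinucleotides, another Kcnc2 window, chr10:112269767-112270066, held 1 box, and the Kcnip2, Kcnc4 and Kcnh4 windows held 2, 1 and 1 boxes and 18, 17 and 23 CpG. Windows were found for 69 of the 94 potassium channel genes, 94 windows in all. The median window had 9 CpG and 58.0% GC, against 7 CpG and 52.7% over all 32851 windows of 300 bases. GGGCGG was found in 47.9% of the channel windows and 35.7% of all windows, and the TATA box TATAAA in 5.32% and 13.6%. The cAMP response element TGACGTCA was in none of the channel windows and 1.79% of all, its core TGACG in 19.1% and 20.8%, and the E-box CACGTG in 7.45% and 7.15%. Of the repressor element RE1, the left part TTCAGCACC was in 1.06% and 0.371% of windows and the shorter right part GGACAG in 28.7% and 22.2%. TGACG lies within TGACGTCA, and the other motifs do not contain each other. Both strands were searched, and a match of letters is not a bound site.

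Whether a knockout effect differed between the contexts was tested with an interaction term in the fit of 12 libraries. Among 81 potassium channel genes, 3 were called (3.70%), against 1.79% of all 18189 genes (1.37% with a positive and 0.423% with a negative difference), and all 3 had a higher log2 fold change of knockout over control at P14 than at P0. For Kcnh3 the effect at P14 exceeded that at P0 by 0.71 (SE 0.13, edgeR adjusted p 0.00687) on the log2 scale, with fold changes of -0.31 at P0 and 0.42 at P14 in the separate fits. For Kcnk9 the difference was 0.57 (SE 0.14, edgeR adjusted p 0.0403), from -0.17 at P0. For Kcnh4 it was 1.31 (SE 0.33, edgeR adjusted p 0.0465). The P0 libraries of Kcnh4 had 11.0, 12.2 and 17.7 CPM in knockouts and 19.3, 17.2 and 16.3 in controls, where knockout 3 fell within the controls. Kcnh3 was called in all 12 fits that left out 1 library, Kcnh4 in 4 and Kcnk9 in 3. Below the threshold were Kcnk4 (1.19), Kcnj4 (0.60), Kcnj12 (0.94), Kcnc4 (0.71) and Kcnj11 (-0.51), with edgeR adjusted p from 0.0623 to 0.0842. For Kcnc2 (-0.13, edgeR adjusted p 0.702) and Kcnip2 (0.14, edgeR adjusted p 0.644), a difference between contexts was not detected. The contexts differ in dissection, age, Cre driver and type of control at once, and the parts of these in an interaction cannot be told apart.

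Genes whose products bind or place potassium channels were read as a separate list of 38. At P0 none of the 35 tested was called by edgeR, against 0.909% of all genes. The log2 fold change was positive for 9 of the 35, and for 8074 of all 16176 genes. Their summed level at P0 was 9434 to 9557 CPM in the knockouts and 9718 to 10241 in the controls. At P14 3 of 37 were called higher and none lower, against 1.21% and 0.773% of all genes. The 3 were Dpp10, a transmembrane partner of Kcnd channels (69.1, 73.9 and 64.0 against 54.1, 48.1 and 47.4 CPM, log2 fold change 0.48, SE 0.08, edgeR adjusted p 0.00650), the scaffold Dlg4 (0.27, edgeR adjusted p 0.0490) and Lingo1 (0.34, edgeR adjusted p 0.0206). Dpp10 was also the gene of this list with a called interaction (log2 difference 0.68, SE 0.12, edgeR adjusted p 0.00570). Its relative Dpp6 was at -0.05 at P14 and -0.26 at P0 and was not called. Within the A-type complex at P14, Dpp10 therefore rose, Kcnip2 fell, and the pores Kcnd1, Kcnd2 and Kcnd3 did not pass the test. Between the controls, 23 of 36 tested partners were called higher at P14 and 7 lower, against 32.3% and 31.7% of all genes.

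Kcne2 and Kcnj13 are channel genes of the choroid plexus epithelium. In the P14 controls Kcne2 had 0.404, 3.29 and 8.11 CPM and Kcnj13 0.288, 1.34 and 2.84, in the same order of libraries as the choroid plexus markers, which summed to 153, 977 and 2571 CPM. In the P14 knockouts Kcne2 had 4.72, 4.55 and 5.34 CPM and Kcnj13 1.14, 1.86 and 1.97, beside marker sums of 1519, 2042 and 1376 CPM. For both genes this order of knockouts differed from that of the marker sums. The knockouts thus lay within the range of the controls for both genes, and the part of the markers in this spread was not tested. Neither gene was called for genotype at P14 (Kcne2 log2 fold change 0.29, SE 0.90, edgeR adjusted p 0.927, and Kcnj13 log2 fold change 0.13, SE 0.62, edgeR adjusted p 0.953). An opposite-strand gene, Gigyf2, overlaps 49.1% of the exon bases of Kcnj13.

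**Figure D5:**
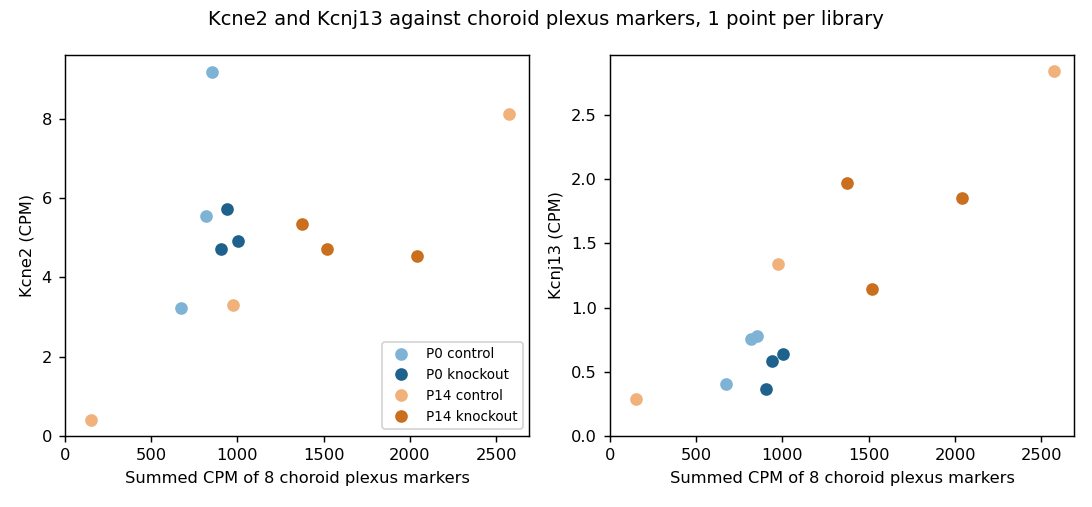
CPM of Kcne2 (left) and Kcnj13 (right) against the summed CPM of 8 choroid plexus markers, 1 point per library and colours for the 4 groups. P14 control 1 is the lowest and P14 control 3 the highest P14 library on every axis. Both axes of a point share the scaling of its library, and the 12 points are shown as a description.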

How the data were processed

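RNA from 12 mouse brain samples was made into libraries with a TruSeq kit and sequenced as 150 bp paired reads, per the labels' protocols. The authors deposited gene counts for each library in 3 columns (unstranded and both strands); the submitters' processing notes name STAR 2.7.5a, edgeR 3.12 and the GRCm38 genome. The strand columns held near-equal totals, so the unstranded column was used. Symbols and gene types came from the GENCODE vM21 annotation.

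Counts were tested with edgeR 4.0.16 in R 4.3.3 (filterByExpr, TMM, robust quasi-likelihood, Benjamini-Hochberg over all genes). P0 and P14 were each fitted on their own 6 libraries, and the interaction and the comparison of controls on all 12. Each test was checked first on simulated counts in which 200 genes changed 2-fold and every gene had the same spread. It recovered 92.5% of them at P0, 95.5% at P14, 80.0% for the interaction and 98.0% between controls. This check does not cover changes as small as those called for genotype at P14, nor single outlying libraries. DESeq2 1.42.0, other scalings, filters and thresholds, a GC offset and leaving out each library were alternatives. RPKM used the union of annotated exons. Values of some single members are not reported here.

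Genes were named if called for genotype or interaction, up to 8 by smallest p, or if among the 10 largest rises or falls between controls, highest in their subfamily, or listed for a textbook role; the others named here complete a subfamily or a pair and were chosen with their values seen. The members and lists were chosen with earlier results of these data known. Replicates were separate animals per the labels, and replicate numbers only name libraries. Replicate libraries differed by more than counting noise (chi-square per degree of freedom of at least 2.93), so none was counted as a duplicate.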

Additional observations from a re-analysis of the deposited data

Results flagged for a closer look

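For 3 potassium channel genes the knockout effect differed between P14 hippocampus and P0 forebrain by the interaction test of edgeR over all 12 libraries. For Kcnh3 the P14 effect exceeded the P0 effect by 0.71 on the log2 scale (adjusted p 0.00687), with all 3 P14 knockouts above all P14 controls and the P0 fold change at -0.31. For Kcnk9 the difference was 0.57 (adjusted p 0.0403), also with all P14 knockouts above all controls, and its P0 groups overlapped. For Kcnh4 the difference was 1.31 (adjusted p 0.0465), with under 4 CPM in each P14 library, and P0 knockout 3 lay within its controls. The difference for Kcnh3 was called in each of the 12 fits without 1 library but not when the larger strand column was counted (adjusted p 0.0582), and those for Kcnh4 and Kcnk9 in 4 and 3 of the 12 such fits. Of all 18189 genes, 1.79% were called in this test.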

How the results depend on the processing

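The number of potassium channel genes called at P0, 0 in edgeR, was 4 with DESeq2, 6 with no filter on low counts, 3 with a GC content offset, 5 at an adjusted p under 0.1, 6 in 1 fit on all 12 libraries, 5 with a term for the library series and 10 in libraries 1407 to 1410 alone, against 2.31%, 1.99%, 2.27%, 2.86%, 1.56%, 2.87% and 12.9% of all genes. It ranged from 0 to 8 when single libraries were left out, and was 0 in all of these but the one without knockout 3. Of all genes, 4.69% were called without knockout 3 and 0.00604% to 1.51% in the other fits without 1 library. At P14 the 5 became 9 with DESeq2 and 15 with no filter (3.10% and 2.48% of all genes). The number was 14 at an adjusted p under 0.1 (3.97%). It ranged from 0 without knockout 1 or control 2 (0.595% and 0.669% of all genes) to 19 without control 3 (10.3%). For the interaction the 3 became 8 with DESeq2 and 7 with no filter (2.92% and 1.83% of all genes). The number was 6 with a GC content offset and 8 at an adjusted p under 0.1 (2.17% and 3.10%). Without single libraries it ranged from 1 to 6, and the share of all genes from 0.669% to 4.85%. It was highest without P0 knockout 3 or P14 control 3 (3.16% and 4.85% of all genes). Between the controls the 67 became 65 to 68 without single libraries and 47 to 70 otherwise. The share of all genes called ranged from 58.2% to 64.3% and from 28.4% to 69.8% in these fits. The cause was not tested.

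Of the values for single genes, 3 that were not called between the controls changed sign. Kcnd3 was at 0.0064 with no filter and 0.0908 with the knockout libraries, and ranged from -0.0791 (without P0 control 3) to 0.0337 (without P0 control 1). Kcnk2 was at 0.0366 with no filter and 0.177 with the knockout libraries, and ranged from -0.0411 (without P14 control 2) to 0.0476 (without P14 control 3). Kcnj8 was at 0.0702 when the larger strand column was counted. The genes named by the stated rule kept their sign in every other fit tried. Kcnc4 at P14 was not called in 1 fit on all 12 libraries (edgeR adjusted p 0.137), Kcnip2 with the larger strand column or the non-robust fit, and Kcnk9 in the non-robust fit. The interactions of Kcnh3 and Kcnh4 were not called with the larger strand column, nor those of Kcnh4 and Kcnk9 in the non-robust fit. No paired analysis was possible because the labels give no replicate numbers shared between groups. Of the 94 genes, 13 had at most 10 counts in every library, so nothing can be said of their changes.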

Other observations

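Several potassium channel genes lie near each other in the genome (GRCm38). Neighbours here are potassium channel genes next in order on a chromosome, leaving aside any other genes between them. Among them, 8 pairs of neighbours lie within 500 kb of each other and had both genes tested between the control groups. In 4 of the pairs the log2 fold changes, P14 hippocampus over P0 forebrain, had opposite signs, and all 8 genes of these pairs were called. In this comparison 82.7% of the tested members and 64.0% of all genes were called. Kcna5 and Kcna1, with a gap of 105 kb on chromosome 6, stood at -1.44 and 3.57. Kcna3 and Kcna2, 63.1 kb apart on chromosome 3, stood at -0.96 (edgeR adjusted p 0.0499) and 2.36. Kcnj2 and Kcnj16, 38.2 kb apart on chromosome 11, stood at -0.33 and 2.65. Kcnip1 and Kcnmb1 overlap in their gene spans on chromosome 11 and stood at -1.01 and 2.14, and none of their annotated exon bases are shared. Kcnmb1 was low, with 1, 1 and 4 counts in the P0 controls and 6, 12 and 17 in the P14 controls. The other 4 pairs moved the same way, and the closest of them, Kcnj9 and Kcnj10, 11.9 kb apart on chromosome 1, rose by 2.46 and 2.68. This reading was chosen after the values were seen.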
